A study of Mus musculus with 16 samples.

Results

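Imprinted genes are transcribed mainly from the copy inherited from 1 parent, and many of them restrain or promote growth. The 10 followed here were Ndn, Snrpn, Mkrn3, Grb10, Igf2r, Dlk1, Slc22a18, Peg3, Impact and Gnas, measured in sorted mouse haematopoietic stem cells. They were read from the bead-array probes annotated to these symbols. The 10 genes had 16 of the 25697 probes on the array, and each gene was read from its brightest probe, chosen by the mean signal of the 16 arrays. That brightness was the only measured value in the rule. The genes themselves were proposed with earlier results of these arrays known, so the counts below describe them and are not independent evidence. Peg3 was not above background on any array, which left 9 of the 10 genes among the 11849 features tested.

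The 16 arrays formed 4 groups of 4, and each array carried RNA pooled from 2 C57Bl/6 mice. In the order used below they were CD70TG CD34- cells, control CD34- cells, CD70TG CD34+ cells and control CD34+ cells. Both genotypes were IFNgamma-/-, so the controls also lacked interferon gamma, a cytokine made by activated T cells. CD70TG mice carried in addition a transgene for CD70, the ligand of the T cell and progenitor receptor CD27. The labels did not name the promoter that drives the transgene or the age of the mice. The study's design calls the CD34- fraction long-term and the CD34+ fraction short-term stem cells, whereas the sorting protocol in the labels writes a CD34-Flt3- gate within Lin-c-Kit+Sca-1+ cells for both. The study asked how stem cell expression in CD70TG mice differs from that in controls.

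At most imprinted clusters a methylated control region on 1 parental chromosome silences or releases several neighbouring genes together. The mark is copied at each cell division by Dnmt1 with Uhrf1 and is protected by Zfp57, a zinc finger protein that binds the methylated hexamer TGCCGC. In the stem cells of adult marrow, imprinted genes such as Ndn, Cdkn1c, Igf2, H19 and Grb10 are known for high expression in the quiescent long-term population. Expression arrays do not tell the parental copies apart, so every value here is the sum over both.

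Snrpn, Ndn and Mkrn3 lie in this order on chromosome 7 and are expressed from the paternal copy. In the RefSeq gene order of GRCm38.p6, Snrpn and Ndn had 2 other protein-coding genes between them, and Ndn and Mkrn3 had 1, Magel2. Grb10 is on chromosome 11, where its major transcript comes from the maternal copy in most tissues. The start regions of these 4 genes are shown because Ndn, Snrpn and Grb10 had the largest genotype differences of the 10 and Mkrn3, in the same cluster as Ndn, had a smaller one. Each sequence is RefSeq's, 300 bases long with 250 before and 50 after an annotated start, 5′ to 3′ on the gene's own strand, with each CG, the dinucleotide that carries methylation, in capitals. The windows are chr7:62348027-62348326 (+ strand) for Ndn, chr7:60005150-60005449 (- strand) for Snrpn start 1, chr7:62420104-62420403 (- strand) for Mkrn3, chr11:12037371-12037670 (- strand) for Grb10 start 1 and chr11:12027922-12028221 (- strand) for Grb10 start 2.
Ndn: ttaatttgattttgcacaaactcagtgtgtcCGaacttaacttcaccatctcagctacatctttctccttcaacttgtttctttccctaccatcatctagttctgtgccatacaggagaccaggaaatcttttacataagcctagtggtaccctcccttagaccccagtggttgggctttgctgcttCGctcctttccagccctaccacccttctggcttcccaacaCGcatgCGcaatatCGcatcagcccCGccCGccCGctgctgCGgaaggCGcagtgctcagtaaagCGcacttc
Snrpn start 1: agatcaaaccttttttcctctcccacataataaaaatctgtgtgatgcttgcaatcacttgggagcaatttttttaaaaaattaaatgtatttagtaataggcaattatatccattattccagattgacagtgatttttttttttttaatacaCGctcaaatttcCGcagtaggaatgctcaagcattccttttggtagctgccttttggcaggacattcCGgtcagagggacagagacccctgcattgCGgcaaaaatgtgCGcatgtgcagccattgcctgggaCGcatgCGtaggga
Mkrn3: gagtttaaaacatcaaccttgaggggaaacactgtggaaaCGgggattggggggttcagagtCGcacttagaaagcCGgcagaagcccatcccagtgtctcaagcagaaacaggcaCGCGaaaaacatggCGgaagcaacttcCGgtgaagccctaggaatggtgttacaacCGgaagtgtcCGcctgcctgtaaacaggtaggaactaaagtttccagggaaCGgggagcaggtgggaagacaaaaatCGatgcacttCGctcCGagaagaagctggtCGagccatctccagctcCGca
Grb10 start 1: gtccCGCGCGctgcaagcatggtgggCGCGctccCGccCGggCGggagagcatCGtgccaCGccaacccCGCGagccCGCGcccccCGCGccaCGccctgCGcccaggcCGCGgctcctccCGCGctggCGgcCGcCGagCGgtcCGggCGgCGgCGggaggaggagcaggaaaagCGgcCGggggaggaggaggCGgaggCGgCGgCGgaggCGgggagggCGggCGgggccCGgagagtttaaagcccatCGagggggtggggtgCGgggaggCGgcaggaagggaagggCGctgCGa
Grb10 start 2: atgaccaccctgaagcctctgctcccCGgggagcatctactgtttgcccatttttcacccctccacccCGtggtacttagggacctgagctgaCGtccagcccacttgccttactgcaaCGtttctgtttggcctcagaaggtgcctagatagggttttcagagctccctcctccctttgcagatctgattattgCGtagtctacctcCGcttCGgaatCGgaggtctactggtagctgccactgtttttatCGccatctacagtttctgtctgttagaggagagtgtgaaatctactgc

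Windows were matched by symbol, and those on chromosome 18, where Impact lies, were left out. The other 9 genes had 16 windows. The table held 32851 windows, with a median of 7 CG and at least 1 CG in 94.6%. The Ndn window held 11 CG, a count reached by 41.4% of all windows, and the Mkrn3 window held 15, a count reached by 34.6%. Snrpn had 4 annotated starts, of which start 1 held 7 CG, a count reached by 52.1%, and the others 4, 3 and 2. Grb10 start 1 held 45 CG, which 1.93% of windows reached, against 9 CG at Grb10 start 2, which 45.8% reached. Among the rest, Gnas had 40, 28, 27 and 16 CG at its 4 starts, Igf2r 34, Peg3 13, Dlk1 9 and Slc22a18 2. The hexamer TGCCGC, read on both strands and holding a CG itself, occurred once at Snrpn start 1 and once at Grb10 start 1. No other window of these 9 genes held it, and 11.6% of all windows did. Which of the annotated starts these cells used, and their methylation, were not measured.

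The values below are the authors' deposited normalised signals, on a log2-like scale with values of 5.498 to 16.489. No source used here names the log base, so a fold is stated only as it would be in base 2. Array medians ran from 6.43 to 6.53, and each array's background threshold, set from its own dim probes, from 6.30 to 6.51. Between 50.2% and 57.5% of probes were above it, and replicate arrays of a group correlated at 0.982 to 0.995 over the 11849 features tested. Cd34 averaged 9.54 ± 0.16 in CD70TG CD34- cells, 9.64 ± 0.09 in control CD34- cells, 9.44 ± 0.17 in CD70TG CD34+ cells and 9.47 ± 0.22 in control CD34+ cells, so its probe was not higher in the CD34+ fractions (SD, n = 4 each). Cd70 averaged 6.00, 6.14, 6.80 and 8.29 in the same order of groups and was not higher in the CD70TG arrays. Whether this probe reads the transgene's transcript is not known from the annotation. In pooled cells, fewer cells of a type and less RNA per cell cannot be told apart.

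**Figure D1:**
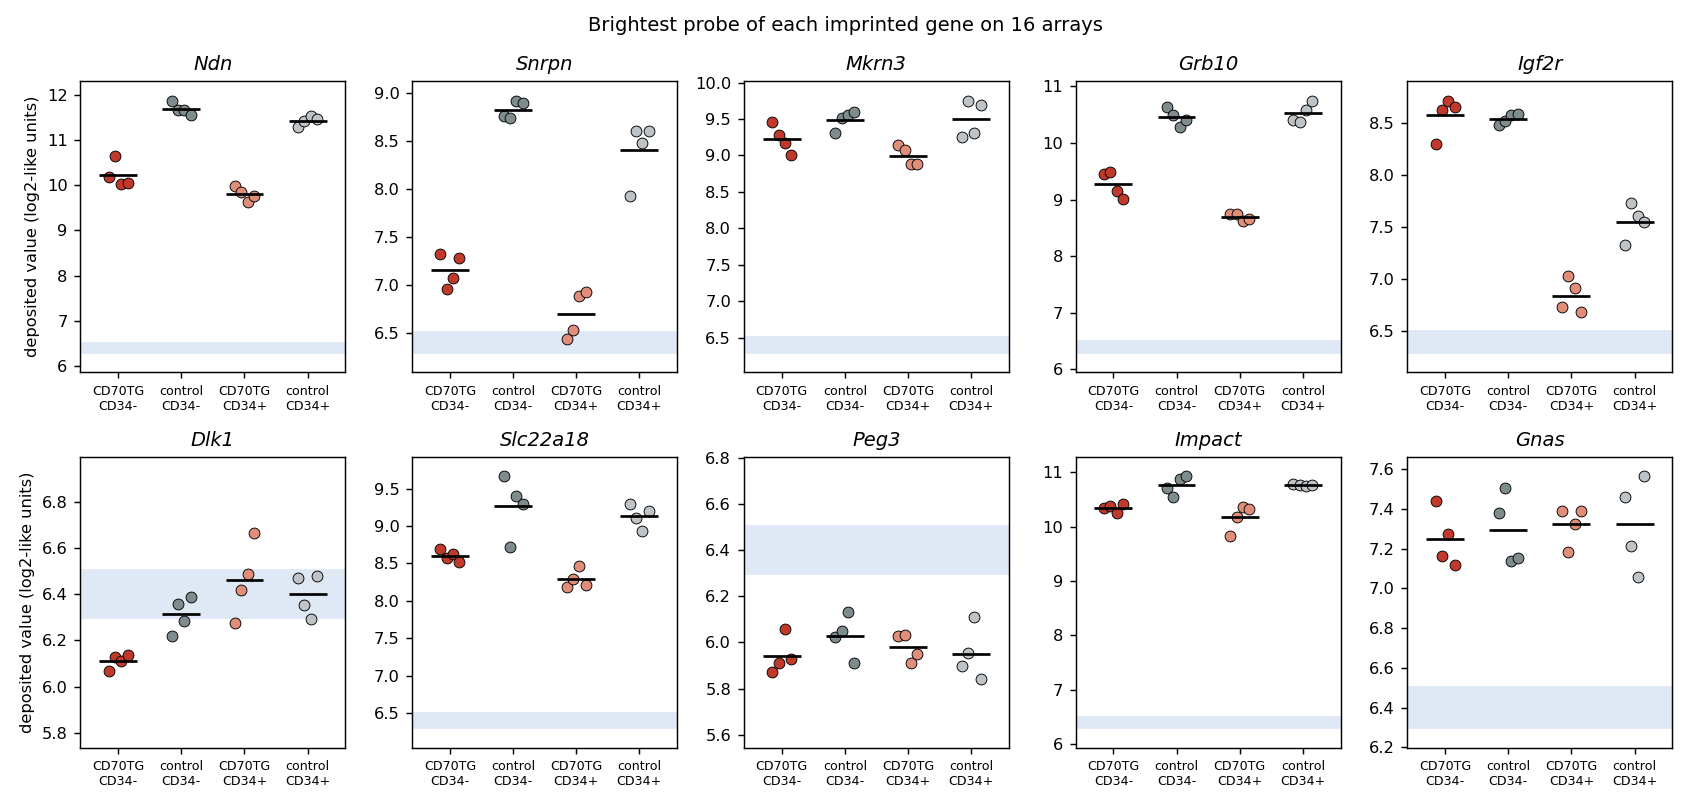
Each panel plots the deposited normalised signal (log2-like units) of 1 gene on the 16 arrays, in the order CD70TG CD34-, control CD34-, CD70TG CD34+ and control CD34+. Points are arrays, lines are group means, and the band spans the array background thresholds of 6.30 to 6.51. Ndn, Snrpn and Grb10 lie lower on all CD70TG arrays than on any control array of the same fraction, and Peg3 lies under the band.

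Ndn, which encodes necdin, a growth suppressor that binds E2F1 and p53, was lower in CD70TG cells of both fractions. Its signal was 10.18, 10.66, 10.02 and 10.05 in CD70TG CD34- cells, against 11.88, 11.67, 11.67 and 11.57 in control CD34- cells. The CD34+ signal was 9.98, 9.86, 9.64 and 9.77 in CD70TG pools, against 11.28, 11.42, 11.54 and 11.47 in control pools. All 8 CD70TG arrays were below all 8 control arrays. The difference, CD70TG minus control, was -1.47 ± 0.13 in CD34- cells (SE; limma, adjusted p = 2.14e-07) and -1.62 ± 0.13 in CD34+ cells (limma, adjusted p = 1.21e-07). These would be 2.77-fold and 3.07-fold lower in base 2. Ranked from the lowest difference of the 11849 features, Ndn was number 16 in each fraction.

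Snrpn, which encodes the SmN protein of the spliceosome, had a difference of like size. It read 7.32, 6.96, 7.08 and 7.28 in CD70TG CD34- cells, against 8.76, 8.74, 8.92 and 8.90 in control CD34- cells. Among CD34+ cells the values were 6.43, 6.53, 6.88 and 6.93 in CD70TG pools, against 7.93, 8.61, 8.48 and 8.61 in control pools. No CD70TG array reached a control array of either fraction, and the lowest CD70TG CD34+ values lay near the background thresholds. The difference was -1.67 ± 0.15 in CD34- cells (limma, adjusted p = 2.41e-07) and -1.71 ± 0.15 in CD34+ cells (limma, adjusted p = 2.60e-07). Snrpn ranked number 8 from the lowest in CD34- cells and number 11 in CD34+ cells. A second Snrpn probe, with a mean of 6.42 and 12 of 16 arrays above background, did not show it: its differences were -0.06 (adjusted p = 0.555) and 0.06 (adjusted p = 0.683).

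Mkrn3, a RING finger protein of the ubiquitin ligase family, lay next in the cluster and differed less. It read 9.46, 9.28, 9.17 and 9.003 in CD70TG CD34- cells, against 9.31, 9.51, 9.55 and 9.60 in control CD34- cells. These ranges overlapped, and the difference of -0.26 ± 0.13 did not pass the threshold (95% interval -0.54 to 0.02; limma, adjusted p = 0.158). In CD34+ cells it read 9.15, 9.07, 8.88 and 8.89 in CD70TG pools, against 9.25, 9.75, 9.30 and 9.70 in control pools. There the groups did not overlap and Mkrn3 fell by 0.50 ± 0.13 (limma, adjusted p = 0.0129), a call that was lost without control CD34+ replicate 2 (adjusted p = 0.0569). Whether Mkrn3 differed less than Ndn was not tested, since probes have their own response.

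Grb10 encodes an adaptor that binds the activated insulin and IGF1 receptors and damps their signal. It read 9.46, 9.49, 9.16 and 9.01 in CD70TG CD34- cells, against 10.63, 10.50, 10.28 and 10.41 in control CD34- cells. The CD34+ values were 8.75, 8.75, 8.63 and 8.66 in CD70TG pools, against 10.41, 10.38, 10.58 and 10.75 in control pools. The highest CD70TG value of either fraction was below the lowest control value. Grb10 fell by 1.18 ± 0.12 in CD70TG CD34- cells (limma, adjusted p = 1.69e-06; rank 60 from the lowest) and by 1.83 ± 0.12 in CD70TG CD34+ cells (limma, adjusted p = 2.10e-08; rank 8). In base 2 these would be 2.26-fold and 3.56-fold.

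Igf2r encodes the cation-independent mannose 6-phosphate receptor, which takes up IGF2 for degradation and carries lysosomal enzymes. Its signal was 8.30, 8.63, 8.72 and 8.65 in CD70TG CD34- cells, against 8.48, 8.52, 8.58 and 8.58 in control CD34- cells. Among CD34+ arrays it was 6.74, 7.03, 6.91 and 6.69 in CD70TG pools, against 7.33, 7.73, 7.60 and 7.55 in control pools. The CD34- groups overlapped, with a difference of 0.03 ± 0.12 (95% interval -0.21 to 0.27; limma, adjusted p = 0.865). The CD34+ groups did not, and Igf2r fell by 0.71 ± 0.12 in CD70TG CD34+ cells (limma, adjusted p = 0.000245). Igf2r's other probe had a mean of 6.49, was above background on 15 of 16 arrays, and differed by 0.03 (adjusted p = 0.854) in CD34- cells and 0.06 (adjusted p = 0.714) in CD34+ cells.

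Dlk1, a transmembrane relative of the Notch ligands expressed from the paternal copy, was near background. It read 6.07, 6.13, 6.11 and 6.14 in CD70TG CD34- cells, against 6.22, 6.36, 6.28 and 6.39 in control CD34- cells, and was above background on none of these CD70TG arrays and on 1 of these control arrays. In CD34+ cells it read 6.28, 6.42, 6.49 and 6.66 in CD70TG pools, with 3 above background, against 6.47, 6.35, 6.29 and 6.48 in control pools, with 2. It passed the filter on dim probes with 6 of 16 arrays. The difference of -0.20 ± 0.07 in CD34- cells passed the test (limma, adjusted p = 0.0390) but rests on a group where the probe has only an upper bound, so no fold is given. The call was lost without the filter on dim probes (adjusted p = 0.0610). In CD34+ cells the difference was 0.06 ± 0.07 (95% interval -0.09 to 0.21; limma, adjusted p = 0.575).

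Slc22a18 encodes a transporter of the organic cation family, expressed from the maternal copy of the distal chromosome 7 cluster. It read 8.69, 8.57, 8.62 and 8.52 in CD70TG CD34- cells, against 9.67, 8.72, 9.40 and 9.29 in control CD34- cells. The CD34+ readings were 8.18, 8.29, 8.47 and 8.22 in CD70TG pools, against 9.30, 9.10, 8.93 and 9.20 in control pools. The groups did not overlap in either fraction, though control CD34- replicate 2 lay close to the CD70TG values. Slc22a18 fell by 0.67 ± 0.15 in CD70TG CD34- cells (limma, adjusted p = 0.00306) and by 0.84 ± 0.15 in CD70TG CD34+ cells (limma, adjusted p = 0.000678). Its other probe was not above background on any array.

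Impact, expressed from the paternal copy in mice, encodes a protein that binds Gcn1 and holds back the amino acid sensing kinase Gcn2. It read 10.34, 10.38, 10.26 and 10.41 in CD70TG CD34- cells, against 10.70, 10.54, 10.88 and 10.93 in control CD34- cells. In CD34+ cells it read 9.82, 10.18, 10.37 and 10.33 in CD70TG pools, against 10.78, 10.77, 10.75 and 10.76 in control pools. The CD70TG values were below the control values in each fraction. Impact fell by 0.41 ± 0.12 in CD70TG CD34- cells (limma, adjusted p = 0.0133) and by 0.59 ± 0.12 in CD70TG CD34+ cells (limma, adjusted p = 0.00164).

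Gnas encodes the stimulatory G protein alpha subunit, whose locus also makes several imprinted transcripts. Its brightest probe read 7.44, 7.16, 7.28 and 7.12 in CD70TG CD34- cells, against 7.38, 7.51, 7.14 and 7.15 in control CD34- cells. For CD34+ cells the readings were 7.39, 7.19, 7.33 and 7.39 in CD70TG pools, against 7.46, 7.21, 7.06 and 7.57 in control pools. The groups overlapped in both fractions. The differences were -0.05 ± 0.12 (95% interval -0.29 to 0.20; limma, adjusted p = 0.809) and -0.00075 ± 0.12 (95% interval -0.25 to 0.25; limma, adjusted p = 0.997). Gnas had 3 other probes, with means of 6.30, 6.10 and 5.98, of which 1 was above background on 3 arrays and the others on none. Peg3, a zinc finger protein expressed from the paternal copy, ranged from 5.84 to 6.13 over the 16 arrays, all of them below background. Its means were 5.94 in CD70TG CD34- cells, 6.03 in control CD34- cells, 5.98 in CD70TG CD34+ cells and 5.95 in control CD34+ cells.

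In CD34- cells, 6 of the 9 tested genes were called lower in CD70TG than in control pools and 3 did not pass. The 6 included Dlk1, whose probe was above background on 0 of 4 CD70TG CD34- arrays and 1 of 4 control CD34- arrays. It could not pass the filter without the CD34+ arrays, which are not compared here. A stricter filter, which left out Dlk1, gave 5 of 8. Of all 11849 features, 11.8% were called lower in this comparison, 1397 in number, and 1891 were called higher. The 6 were Ndn, Snrpn, Grb10, Dlk1, Slc22a18 and Impact, and the same 6 had every CD70TG value below every control value, a pattern that 9.66% of all features had. In CD34+ cells, 7 of the 9 were called lower, against 10.6% of all features. These were Ndn, Snrpn, Mkrn3, Grb10, Igf2r, Slc22a18 and Impact, each without overlap, as were 12.8% of all features in that direction. The median difference of the 9 genes was -0.41 in CD34- cells, against 0.02 over all features, and -0.71 in CD34+ cells, against 0.02. When a fold of at least 1.2 was required, Ndn, Snrpn and Grb10 were still called in both fractions, while the calls of Dlk1, Slc22a18 (adjusted p = 0.0756) and Impact (adjusted p = 0.541) in CD34- cells and of Mkrn3 (adjusted p = 0.402) and Impact (adjusted p = 0.105) in CD34+ cells were lost.

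**Figure D2:**
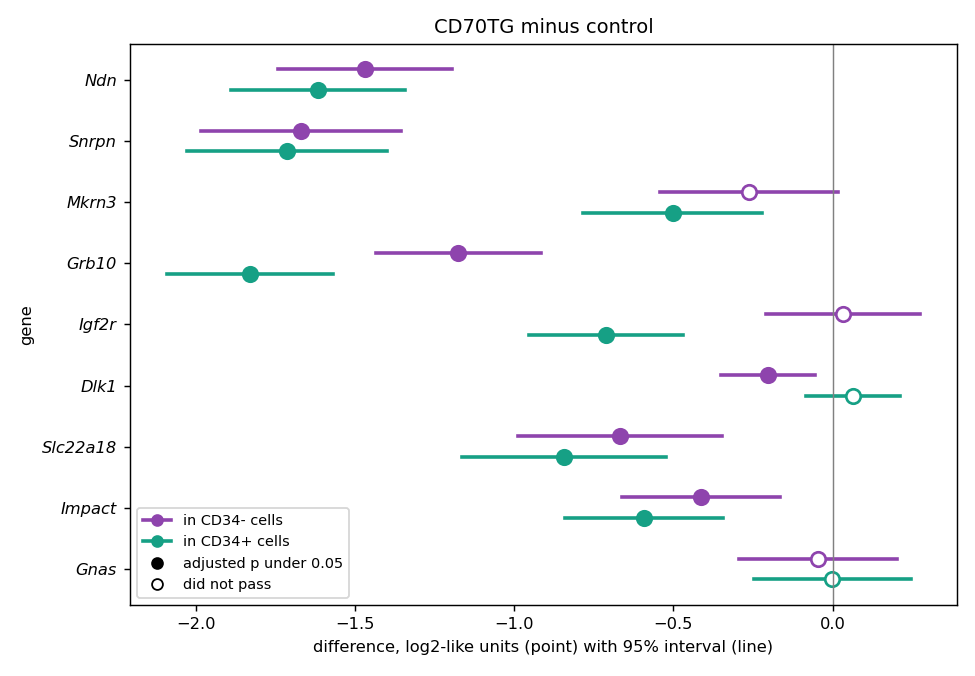
The CD70TG minus control difference in normalised signal (log2-like units) of the 9 tested genes is plotted for each fraction with its 95% interval, and filled points had an adjusted p under 0.05. Ndn, Snrpn and Grb10 lie farthest below 0 in both fractions, and Gnas lies at 0 in both.

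These differences stood beside others between the genotypes in the same arrays, for which the shares over all features called higher were 15.96% in CD34- cells and 7.57% in CD34+ cells, and those called lower 11.8% and 10.6%. Of 13 G2 and M phase genes above background, 12 were higher in CD70TG CD34- cells and 13 in CD70TG CD34+ cells. Their mean level per array was 9.12 to 9.33 in CD70TG CD34- cells, against 8.01 to 8.12 in control CD34- cells, and 9.31 to 9.42 in CD70TG CD34+ cells, against 8.13 to 8.32 in control CD34+ cells. Of 9 myeloid granule genes, 8 were higher in CD70TG CD34- cells and 7 in CD70TG CD34+ cells, with mean levels of 10.29 to 10.68 against 8.78 to 9.19 in control CD34- cells and of 9.80 to 10.29 against 8.72 to 8.88 in control CD34+ cells. Of 28 genes on a list of long-term stem cell genes, 15 were lower and 2 higher in CD70TG CD34- cells, and 17 were lower in CD70TG CD34+ cells. Cdkn1c, lower in both fractions, is counted here and again among the other imprinted genes below. All 5 mast cell and basophil genes were higher in CD70TG CD34- cells and 3 in CD70TG CD34+ cells, with Mcpt8, a basophil protease, higher by 2.63 and 2.34. Their mean level was 9.10 to 10.03 in CD70TG CD34- cells, against 7.66 to 8.05 in control CD34- cells, and 8.99 to 9.17 in CD70TG CD34+ cells, against 8.10 to 8.26 in control CD34+ cells. Of 6 B and plasma cell genes above background, 5 were lower in CD70TG CD34- cells and 3 in CD70TG CD34+ cells, with mean levels of 7.01 to 7.23 against 7.52 to 7.61 in control CD34- cells and of 6.84 to 6.95 against 7.004 to 7.79 in control CD34+ cells. Stromal and endothelial markers were above background for 6 of 12 genes, and members moved in both directions. Emcn, an endothelial sialomucin that stem cells also carry, fell by 0.64 in CD70TG CD34- cells and by 1.33 in CD70TG CD34+ cells, while Pdgfrb was higher by 0.42 and 0.48 and Kdr by 0.59 in CD70TG CD34- cells. Their mean levels were 7.11 to 7.23 in CD70TG CD34- cells, 7.03 to 7.16 in control CD34- cells, 6.96 to 7.02 in CD70TG CD34+ cells and 7.002 to 7.049 in control CD34+ cells. Of 6 megakaryocyte genes, 1 was higher and 2 were lower in CD70TG CD34- cells, and 4 were lower in CD70TG CD34+ cells. Of 7 erythroid genes, 1 was lower in each fraction. Of 6 T and NK cell genes, 1 was higher and 1 lower in CD70TG CD34- cells, and 2 were lower in CD70TG CD34+ cells. The part of these cell types and of cell cycle state in the imprinted genes' differences was not tested.

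Between the fractions of control mice, Igf2r was the 1 gene of the 9 that passed the test. It fell by 0.99 ± 0.12 in control CD34+ cells relative to control CD34- cells (limma, adjusted p = 1.55e-05), which ranked 90 from the lowest. Of all features, 4.33% were called lower in this comparison. Ndn and Snrpn also had every control CD34+ value below every control CD34- value, which with Igf2r makes 3 of 9, against 6.59% of all features. Their differences of -0.27 ± 0.13 (limma, adjusted p = 0.226) and -0.42 ± 0.15 (limma, adjusted p = 0.0912) did not pass. Grb10, at 0.07 ± 0.12 (limma, adjusted p = 0.771), did not pass either.

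In CD70TG mice Igf2r and Grb10, 2 of the 9 genes, were called lower in CD34+ than in CD34- cells, as were 4.39% of all features. Igf2r fell by 1.73 ± 0.12 in CD70TG CD34+ cells relative to CD70TG CD34- cells (limma, adjusted p = 5.95e-09; rank 24 from the lowest), which would be 3.32-fold in base 2. Grb10 fell by 0.58 ± 0.12 (limma, adjusted p = 0.00550). Dlk1 differed by 0.35 ± 0.07 (limma, adjusted p = 0.00318), but its probe was above background on 0 of 4 CD70TG CD34- arrays and on 3 of 4 CD70TG CD34+ arrays. Of these groups it could pass the filter only through the CD34+ one, so it is not counted as a called gene here. Ndn at -0.41 ± 0.13 (limma, adjusted p = 0.0747) and Snrpn at -0.47 ± 0.15 (limma, adjusted p = 0.0804) did not pass. The CD34+ values lay below all CD34- values for 5 of the 9 genes, against 8.78% of features.

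**Figure D3:**
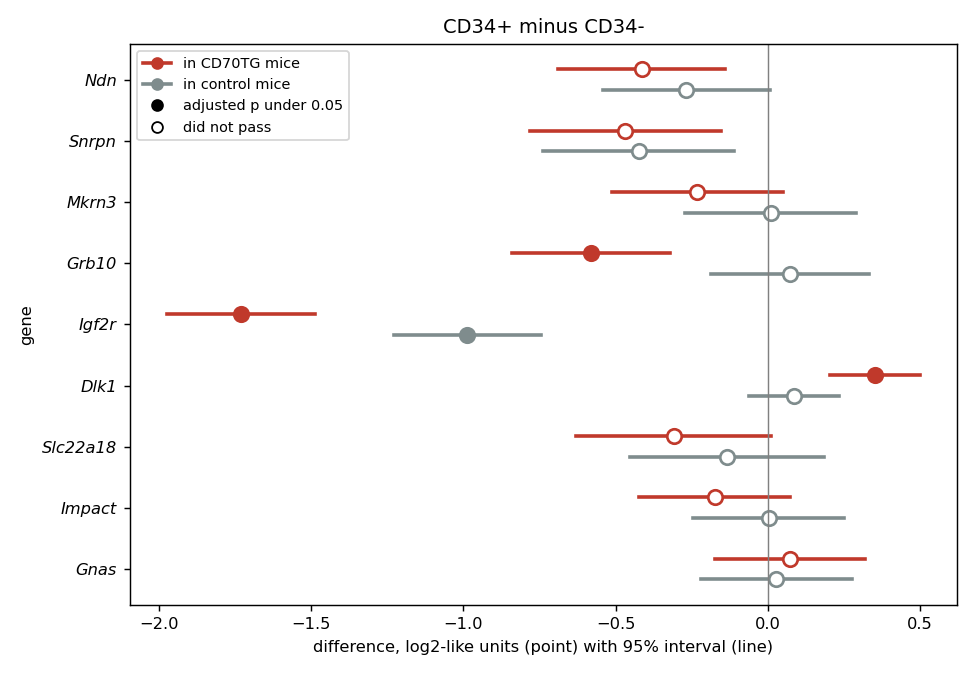
The CD34+ minus CD34- difference in normalised signal (log2-like units) of the 9 tested genes is plotted for CD70TG and control mice with its 95% interval, and filled points had an adjusted p under 0.05. Igf2r lies lowest in both genotypes, at -1.73 in CD70TG mice and -0.99 in control mice.

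Macrophage markers moved with Igf2r between the fractions. Of 16 such genes on the array 15 were above background, Cd5l being the exception. Their mean level was 8.36 to 8.68 in CD70TG CD34- cells, 7.39 to 7.53 in control CD34- cells, 6.87 to 7.08 in CD70TG CD34+ cells and 6.86 to 6.94 in control CD34+ cells. Of the 15, 13 were lower in the CD34+ than the CD34- cells of CD70TG mice, and 8 were lower and 1 higher in control mice. Of all features, 4.39% were called lower in CD70TG mice. In control mice 4.33% were called lower, and 472 of 11849 features higher. Between the genotypes, 12 of the 15 were higher in CD70TG CD34- cells, where Igf2r did not pass, against 15.96% of all features. In CD70TG CD34+ cells, where Igf2r fell by 0.71, 3 were higher, 2 were lower and 10 did not pass. The shares of all features there were 7.57% higher and 10.6% lower. The part of macrophage RNA in the Igf2r values was not tested.

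The order of the levels follows from these values. For Ndn and Snrpn control CD34- cells were highest, then control CD34+, CD70TG CD34- and CD70TG CD34+ cells, and neither neighbouring pair within a genotype passed the test. For Grb10 the control fractions, which the test did not separate, were highest, CD70TG CD34- cells came next and CD70TG CD34+ cells were lowest, with the CD70TG fractions apart. For Igf2r the CD34- groups, also not separated, were highest, followed by control CD34+ and then CD70TG CD34+ cells.

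Whether the genotype difference itself changed with the fraction was tested as an interaction. In limma's fit 42 of 11849 features passed, 0.354%, with 0 of the 9 genes among them. Igf2r came closest, at -0.74 ± 0.16 (CD34+ effect minus CD34- effect; 95% interval -1.09 to -0.40; limma, adjusted p = 0.0629), and it passed under 5 of the other fits and without any 1 of 3 arrays. Grb10 was at -0.65 ± 0.18 (limma, adjusted p = 0.196) and Dlk1 at 0.27 ± 0.10 (limma, adjusted p = 0.506). The other 6 had adjusted p-values of 0.864 to 0.991. Both genotype comparisons use separate arrays, but each group enters 2 of the comparisons between groups given here.

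**Figure D4:**
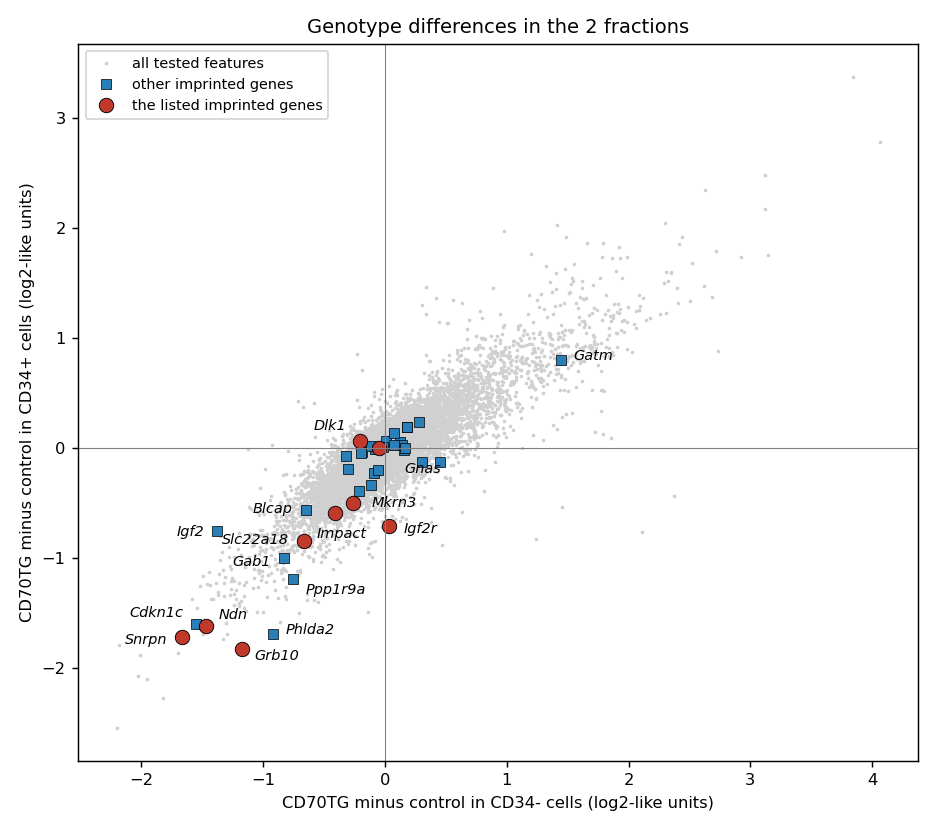
Each point is a feature, at its CD70TG minus control difference in CD34- cells (horizontal axis, log2-like units) and in CD34+ cells (vertical axis). Grey points are all features, blue squares the other imprinted genes and red points the 9 genes followed here. Ndn, Snrpn and Grb10 lie far down in the lower left corner, Igf2r near 0 on the horizontal axis and at -0.71 on the vertical, and Gnas near the origin.

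Among replicates, the genes were about as variable as the rest of the array. The within-group SD was 0.19 for Ndn, 0.23 for Snrpn, 0.19 for Mkrn3, 0.17 for Grb10, 0.15 for Igf2r, 0.10 for Dlk1, 0.23 for Slc22a18, 0.16 for Impact and 0.17 for Gnas, against a median of 0.16 over all features. The genes were alike across groups more than within them. Over the 36 pairs of the 9 genes, the correlation across the 16 arrays had a median of 0.43, with a range of -0.70 to 0.97. After the group means were taken away the median was -0.02, with a range of -0.63 to 0.69. Ndn and Snrpn, for example, correlated at 0.94 over the 16 arrays and at -0.26 within groups. These correlations describe 16 arrays that share 4 group means.

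The named genes whose signal ran most like each member over the 16 arrays were found among 10904 others. For Ndn they were Vwf (Pearson r = 0.981), Tgm2 (0.980) and Slc16a9 (0.980). For Snrpn they were Cadps2 (0.975), Tgm2 (0.972) and Tcf15 (0.970), and for Grb10 Tgm2 (0.976), the imprinted gene Phlda2 (0.976) and Ndn (0.974). Vwf, which encodes von Willebrand factor and marks platelet-biased stem cells, and Tgm2, a transglutaminase, were on the long-term stem cell list and fell by 1.70 and 1.95 in CD70TG CD34- cells. For Igf2r the closest were Itgb5 (0.958), Hebp1 (0.954) and Ccl4 (0.954), and within groups Ccl4 correlated with it at -0.25. Mkrn3 was closest to Agpat4 (0.864), Dusp16 (0.847) and Tie1 (0.840), and Slc22a18 to Lysmd1 (0.952), Hdac11 (0.950) and Arid3b (0.949). Impact ran most like Slc38a9 (0.976; 0.905 within groups), Gprasp1 (0.943) and Gbp2 (0.940). For Gnas and Dlk1 the nearest genes were less close, with Ncoa4 at 0.759 and Slc39a4 at 0.846.

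A list of 66 other genes known as imprinted, in these cells or elsewhere, had 52 on the array and 30 above background. In CD34- cells 7 of the 30 were lower and 1, Gatm, was higher in CD70TG than in control pools, with a median difference of -0.07. The Gatm call has a limit given below. In CD34+ cells 8 were lower, with a median of -0.04, and 20 passed in neither fraction. These counts stand beside 11.8% of all features called lower and 15.96% called higher in CD34- cells, and 10.6% called lower in CD34+ cells. Cdkn1c, the cyclin-dependent kinase inhibitor p57 that holds stem cells out of cycle, averaged 9.82 ± 0.18 in CD70TG CD34- cells and 11.37 ± 0.07 in control CD34- cells, and 9.70 ± 0.19 in CD70TG CD34+ cells and 11.30 ± 0.24 in control CD34+ cells (SD, n = 4 each). Its differences were -1.55 ± 0.13 (limma, adjusted p = 1.06e-07) and -1.60 ± 0.13 (limma, adjusted p = 1.18e-07).

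Igf2, the growth factor that Igf2r takes up, averaged 6.63 ± 0.17 in CD70TG CD34- cells and 8.004 ± 0.13 in control CD34- cells, a difference of -1.38 ± 0.10 (limma, adjusted p = 4.07e-08). In CD34+ cells it averaged 6.51 ± 0.05 in CD70TG pools and 7.26 ± 0.20 in control pools, a difference of -0.75 ± 0.10 (limma, adjusted p = 5.10e-05). Both CD70TG means lay near the background thresholds of 6.30 to 6.51, which limits how large either difference could be. The ligand was thus called lower in CD70TG cells of both fractions and the receptor in those of the CD34+ fraction; neither interaction passed (adjusted p = 0.0971 for Igf2). Phlda2, a small pleckstrin homology protein that limits placental growth, differed by -0.92 ± 0.14 in CD34- cells (limma, adjusted p = 9.99e-05) and by -1.70 ± 0.14 in CD34+ cells (limma, adjusted p = 1.57e-07). Gab1, a docking protein of receptor tyrosine kinases, fell by 0.83 and 1.00, Ppp1r9a by 0.76 and 1.19 and Blcap by 0.65 and 0.56. Gatm, an enzyme of creatine synthesis, was the 1 gene called higher, at 1.45 ± 0.31 in CD34- cells (limma, adjusted p = 0.00213). Its probe read 8.28, 6.43, 7.78 and 7.96 in CD70TG CD34- cells. In control CD34- cells it averaged 6.17 and was below background on every array. Of these groups it could pass the filter only through the CD70TG one, so no weight is put on this call.

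On chromosome 7, neighbours from the lists of imprinted genes did not all differ alike. Whether each is imprinted in these cells was not measured. Cdkn1c, Slc22a18 and Phlda2 are adjacent protein-coding genes in the RefSeq order, and all of them were lower in both fractions. Kcnq1, just before them, differed by 0.14 and 0.02, and Nap1l4, just after them, by -0.09 and -0.23, none of which passed. The group means of Kcnq1 were 6.69 to 6.83, near the background thresholds of 6.30 to 6.51. A fall as large as that of Cdkn1c could not be seen with this Kcnq1 signal. Farther before them, Tspan32 differed by -0.39 (limma, adjusted p = 0.0180) and Cd81 by -0.33 (limma, adjusted p = 0.0322) in CD34+ cells. Neither passed in CD34- cells, and Ascl2 and Tssc4, on either side of this pair, did not pass in either fraction. Ascl2, with group means of 6.73 to 6.81, was also near the thresholds. In the proximal cluster, Ube3a, next to Snrpn and expressed from both copies outside neurons, differed by 0.45 and -0.13, and Atp10a by 0.28 and 0.24, with none passing. Peg12, next to Mkrn3, differed by 0.18 and 0.20 and did not pass. Its group means of 6.08 to 6.28 were all below the background thresholds, so its probe cannot show whether Peg12 differed. Magel2, between Ndn and Mkrn3, was on the array and not above background.

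**Figure D5:**
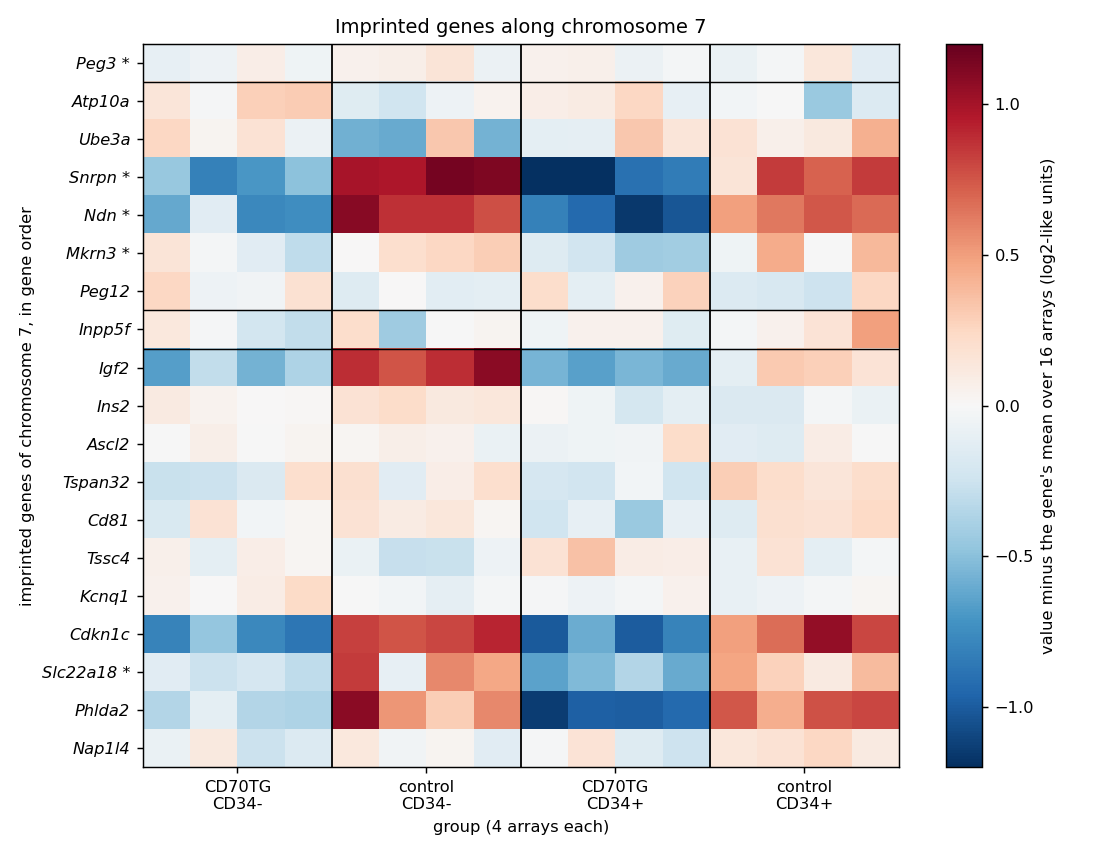
Imprinted genes of chromosome 7 are in their order along the chromosome (rows, members starred) on the 16 arrays (columns, by group). Colour is the normalised signal minus the gene's mean over all arrays, in log2-like units from -1.2 to 1.2, with values beyond these in the end colours. Snrpn, Ndn, Igf2, Cdkn1c, Slc22a18 and Phlda2 are lower in the CD70TG columns, while Ube3a and Kcnq1, next to Snrpn and Cdkn1c, did not pass in either fraction. Kcnq1 lay near the background thresholds in every group, which limits how far it could fall.

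The partners of these proteins were read from lists chosen with earlier results known. Their counts are to be read against the shares of all features, which were 15.96% higher and 11.8% lower in CD70TG CD34- cells and 7.57% higher and 10.6% lower in CD70TG CD34+ cells, and nothing particular to a list is read from them. Of 23 insulin and IGF signalling genes that Grb10 and Igf2r act on or with, 5 were higher and 3 lower in CD70TG CD34- cells, and 3 were higher and 4 lower in CD70TG CD34+ cells. Igf2, lower in both fractions, is counted here and among the other imprinted genes. Igf1 was higher by 0.58 ± 0.11 in CD34- cells (limma, adjusted p = 0.00100). Igfbp7, an IGF-binding protein, was higher by 0.63 and 0.84, and Foxo1, the transcription factor that insulin signalling keeps out of the nucleus, fell by 0.57 and 0.54. The receptor gene Igf1r did not pass, at differences of 0.005 and 0.02.

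Of 19 genes of Gs and cyclic AMP signalling, in which Gnas acts, 3 were higher and 3 lower in CD70TG CD34- cells, and 3 were higher and 2 lower in CD70TG CD34+ cells. The prostaglandin E2 receptor Ptger2 was higher by 0.50 and 0.59, while the adenylyl cyclases Adcy9 and Adcy6 fell by 0.61 and 0.64 in CD34- cells and by 0.68 and 0.72 in CD34+ cells. Of 13 genes of the eIF2 kinase and amino acid response, the pathway Impact restrains, 1 was higher and 3 were lower in CD70TG CD34- cells, and 3 were lower in CD70TG CD34+ cells. Ddit3, a stress-induced transcription factor, fell by 0.63 and 0.71, and Ppp1r15a, which directs eIF2 alpha dephosphorylation, fell by 1.11 and 0.78.

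Of 13 spliceosomal Sm and assembly genes, to whose family Snrpn belongs, 3 were higher in CD70TG CD34- cells and 5 in CD70TG CD34+ cells. Gemin2, which loads Sm proteins onto small nuclear RNA, was higher by 0.87 and 0.54. Of 13 imprint maintenance genes, Dnmt1 was higher in CD70TG cells of both fractions, by 0.76 ± 0.12 (limma, adjusted p = 0.000145) and 0.56 ± 0.12 (limma, adjusted p = 0.00290), and Uhrf1 in CD34- cells by 0.57 ± 0.14 (limma, adjusted p = 0.00456). The other members of that list did not pass in either genotype comparison. The G2 and M phase genes given above were higher on the same arrays, and their part in the Dnmt1 and Uhrf1 values was not tested.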

How the data were processed

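RNA from sorted stem cells was amplified, labelled with biotin and, per the labels' protocols, hybridised to Illumina bead arrays for the mouse. The authors deposited 1 normalised value per probe and array on a log2-like scale; its log base, background correction and normalization are named in none of the sources used here. A second table has 32 sample columns whose names match no label and was not used. Of 25697 probes, 23978 had 1 gene symbol in the platform annotation, none had several and 1719 had none, and 23962 were brought to current symbols by gene number.

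A probe was kept if, on at least 4 of 16 arrays, it exceeded the mode of dim values by 1.64 SD of the background (density bandwidth 0.1). This kept 15551 probes, and the brightest per gene gave 11849 features, 10905 of them named. The deposited values were fitted in limma 3.58.1 (R 4.3.3; lmFit and eBayes with a trend) with 4 group means on all 16 arrays (12 residual degrees of freedom), and p-values were adjusted over all features by Benjamini-Hochberg at a threshold of 0.05. The median SE of a difference between groups was 0.115; with arrays, their number limits the precision. P-values measure the spread between pools of 2 mice. The fit was tested on simulated data.

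The labels do not say that replicate numbers pair the samples. Of 16 same-numbered pairs, 9 had correlated deviations over 0.1 (range -0.31 to 0.65), and the numbers were not used as pairs. The text names the 10 genes with all their probes, up to 4 called genes per list and comparison with the smallest p, and the 3 genes nearest each member by Pearson r. Genes of the other lists that did not pass, and those adjacent on chromosome 7, were chosen after their values were seen. The members, lists and tests were chosen with earlier results of these data known. The alternatives were the filter, the probe per gene, the samples fitted, a replicate block, array weights, a minimum fold, the normalization, the variance trend, a covariate for probe discordance and leaving out each array.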

Additional observations from a re-analysis of the deposited data

How the results depend on the processing

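Ndn, Snrpn and Grb10 kept their direction and passed the test in both genotype comparisons under every alternative run. Each was followed by its brightest probe, also where each kept probe was tested on its own, or by the mean of its kept probes. Snrpn's second kept probe, tested on its own among all probes, did not pass. It differed by -0.06 in CD34- cells (limma, adjusted p = 0.555) and by 0.06 in CD34+ cells (limma, adjusted p = 0.683). With a minimum fold of 1.2, the genes called in CD34- cells were 3 in place of 6 (Dlk1 included). Those called between the fractions of CD70TG mice were 1 in place of 3 (Dlk1 included). With an index of probe discordance as covariate, 3 were called in CD34- cells. This index, from 1838 genes with 2 kept probes, averaged 0.70 in CD70TG CD34- cells, -1.18 in control CD34- cells, 0.89 in CD70TG CD34+ cells and -0.42 in control CD34+ cells, so it moved with genotype, and its part was not tested further. In the interaction, 1 gene, Igf2r, passed with the replicate block as fixed (adjusted p = 0.0269) or random (0.0497), with array weights (0.0238), without a variance trend (0.0419) and with the index (0.0233). The replicate block changed no other call of the 9 genes. Leaving out each array in turn, counts of called genes were 5 to 6 in CD34- cells, 6 to 7 in CD34+ cells, 1 to 1 between control fractions, 3 to 4 between CD70TG fractions and 0 to 1 in the interaction. Igf2r passed there without CD70TG CD34- replicate 1 (adjusted p = 0.0169), CD70TG CD34+ replicate 2 (0.0462) or control CD34+ replicate 1 (0.0347). Dlk1, near background, lost its call in CD34- cells without the filter on dim probes (adjusted p = 0.0610), with quantile normalization (0.0544), without a variance trend (0.0722), with the index (0.242), with the minimum fold (adjusted p = 1) and without 7 of the arrays in turn (0.0526 to 0.104), and the stricter filter left it out. Slc22a18 and Impact lost theirs in CD34- cells with the minimum fold (0.0756 and 0.541) and with the index (0.0708 and 0.311). Snrpn passed between the CD70TG fractions with only the arrays compared (0.0337), array weights (0.0223), the index (0.0356) and without control CD34+ replicate 1 (0.0271).

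Differences that changed sign were small and did not pass either way, and their cause was not tested. For Snrpn in the interaction they were 0.037 with the mean of its probes, 0.033 with quantile normalization and 0.034 with the index. Between the control fractions, Impact was -0.014 with array weights and -0.050 with quantile normalization, Mkrn3 was -0.030 with quantile normalization and -0.044 with the index, and Gnas was -0.096 with the index. In the genotype comparisons, Gnas was 0.037 in CD34+ cells with array weights and Igf2r was -0.064 in CD34- cells with quantile normalization. Without 1 array at a time, Snrpn in the interaction ran from -0.20 to 0.043, Slc22a18 from -0.31 to 0.0062 and Gnas from -0.044 to 0.13. Between the control fractions, Gnas ran from -0.052 to 0.12, Impact from -0.073 to 0.057, Mkrn3 from -0.075 to 0.093 and Grb10 from -0.0011 to 0.13. In the genotype comparisons, Gnas ran from -0.11 to 0.025 in CD34- cells and from -0.090 to 0.080 in CD34+ cells, Igf2r from -0.016 to 0.12 in CD34- cells and Dlk1 from -0.0042 to 0.13 in CD34+ cells.

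Over all features, quantile normalization gave 1618 higher and 2001 lower in CD34- cells, against 1891 and 1397. Counts moved by over 1.5 times with the minimum fold (1081, 545, 211, 286 and 19 against 3288, 2152, 985, 709 and 42 in the order CD34-, CD34+, control fractions, CD70TG fractions and interaction), with the index (674 in CD34- cells and 967 in CD34+ cells), with array weights (3317 in CD34+ cells and 1415 between CD70TG fractions) and with only the arrays compared (482 between control fractions). Without control CD34- replicate 4 or control CD34+ replicate 4, 623 and 637 were called between the control fractions.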
